A study of Mus musculus with 40 samples.

Results

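Transcripts of 9 genes of B cell development (Vpreb1, Igll1, Rag1, Rag2, Ebf1, Pax5, Cd79a, Cd79b and Ms4a1) were followed through rib regeneration in immature and mature mice. The genes were taken by symbol from the gene table of the bulk RNA-seq, and all 9 were among the 21203 genes tested. The mice were Wild Type females of 7 weeks (immature) or over 10 months (mature), and the background strain was C57BL/6. Rib tissue was collected at baseline, on the day of resection (0dpr) and 2, 5 and 14 days later (2dpr, 5dpr and 14dpr), which the labels call composite tissue of bone, bone marrow and intercostal muscle at baseline and bone callus from 0dpr on. The labels also word the baseline tissue as taken after a resection, and its relation to 0dpr is not stated there, which bears on every comparison with baseline. Each of the 10 groups held 4 libraries, except mature 5dpr with 3, since replicate 2 of that group was not analysed here. The groups carried no other genotype and no drug, and the labels do not tie libraries to single animals, so the p-values measure the spread between libraries.

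B cells develop in the bone marrow from lymphoid progenitors through pro-B and pre-B stages. In these precursors Rag1 and Rag2 encode the enzyme that recombines the immunoglobulin genes, and Vpreb1 and Igll1 encode the surrogate light chain that pairs with a new heavy chain before a true light chain is made. EBF1 and PAX5 are the transcription factors that set and hold B lineage identity, Cd79a and Cd79b encode the signalling chains of the B cell receptor from the precursor stage onward, and Ms4a1 encodes CD20, a surface protein that is most abundant on later B cells.

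Sequences upstream of 3 members are shown because these genes are classical EBF1 targets. Their transcripts moved together in these libraries, while Ebf1 had a Pearson's r of 0.25 with Vpreb1 and Igll1 and of 0.17 with Cd79a. The gene most like bulk Ebf1 was Islr (r = 0.86), which encodes a mesenchymal surface protein. The cells that gave the Ebf1 reads were not measured, and the part of EBF1 in the levels of the 3 members was not tested. RefSeq promoters (GRCm38.p6) were held for 7 of the 9 members. The letters CTCNAGGG (CCCTNGAG on the other strand), an EBF1-type motif chosen after these promoters were read, stood in the 250 bases upstream of Cd79a, Igll1 and Vpreb1, that is in 3 of the 7 genes and in 5.47% of 32851 promoters. The E-box letters CAGGTG, searched on the other strand as CACCTG, stood upstream of Cd79a, Igll1, Rag1 and Vpreb1, in 4 of the 7 genes and in 17.2% of all promoters. Since the EBF1-type motif was chosen on these promoters, its share beside that of all promoters cannot test enrichment. The members are also counted as genes (7 genes with 8 promoters), whereas the shares of all are of promoters. The 2 motifs did not overlap in these sequences, and each match is a match of letters only. Capitals mark the motifs, and each sequence is read 5′ to 3′ on the strand of its gene, from chr7:24897247-24897380 (plus strand, Cd79a, ending where the annotated gene begins), chr16:16863986-16864235 (minus strand, Igll1) and chr16:16869256-16869505 (minus strand, Vpreb1, where a non-coding Vpreb1 transcript also has an exon).
Cd79a: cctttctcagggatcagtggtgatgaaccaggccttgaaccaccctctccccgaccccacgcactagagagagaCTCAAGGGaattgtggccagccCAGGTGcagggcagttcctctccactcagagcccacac
Igll1: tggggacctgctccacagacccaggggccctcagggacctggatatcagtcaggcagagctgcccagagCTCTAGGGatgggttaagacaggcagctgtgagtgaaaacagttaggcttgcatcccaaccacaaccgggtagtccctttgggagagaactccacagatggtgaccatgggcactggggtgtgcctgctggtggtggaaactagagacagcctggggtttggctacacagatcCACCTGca
Vpreb1: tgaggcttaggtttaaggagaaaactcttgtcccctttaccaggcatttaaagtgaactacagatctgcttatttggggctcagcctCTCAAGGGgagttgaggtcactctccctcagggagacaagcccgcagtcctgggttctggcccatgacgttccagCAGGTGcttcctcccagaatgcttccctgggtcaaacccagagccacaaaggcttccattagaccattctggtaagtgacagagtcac
The EBF1-type motif began 176 bases upstream of the RefSeq start of Cd79a, 181 bases upstream for Igll1 and 163 bases upstream for Vpreb1.

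On GRCm38 the 2 surrogate light chain genes lie close together on the minus strand, Vpreb1 at chr16:16868403-16870843 (overlapping Top3b) and Igll1 at chr16:16860671-16863985. The recombinase genes lie close together on opposite strands, Rag1 at chr2:101638282-101649501 and Rag2 at chr2:101624718-101632529. Ebf1 lies at chr11:44617317-45008091, Pax5 at chr4:44524757-44710487, Cd79a at chr7:24897381-24902197, Cd79b at chr11:106311341-106314762 and Ms4a1 at chr19:11249675-11266241. Igll1, Cd79a and Cd79b overlap no other annotated gene, whereas Ebf1, Pax5 and Ms4a1 overlap other gene models, whose reads may not be told apart where exons meet.

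Total counts ran from 6075274 to 21546794 per library with a median of 9092095. Values are CPM, counts divided by library size and scaled by the trimmed mean of M-values (TMM). In bulk tissue, fewer B cells, less of a transcript per B cell and a changed share of other cells cannot be told apart. Reads of a member may also come from cells other than B cells. One library stood apart within its group in T lineage transcripts: immature 2dpr replicate 1 summed to 52.3 CPM over 8 T cell markers, against 5.40 to 11.3 CPM in the other 3 libraries. Its Rag values are given below with and without it. Values of Rag2, Igll1 and Vpreb1 at 2dpr and 5dpr rest on few reads, and their counts stand beside the results.

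In group means, all members except Ebf1 shared one course: highest at baseline or 0dpr, lowest at 2dpr or 5dpr, and higher again at 14dpr. From 0dpr to 2dpr, 6 of 9 members fell in immature mice, where 22.2% of all genes tested were lower, and 9 of 9 fell in mature mice, where 24.9% were lower (edgeR quasi-likelihood test, adjusted p under 0.05). The median log2 fold change of the members was -1.67 in immature and -3.59 in mature mice, against -0.04 and -0.05 over all genes. The 2dpr and 0dpr libraries did not overlap for 5 members in immature mice (38.4% of all genes) and for 7 in mature mice (34.6% of all genes). Many other marrow and muscle transcripts moved in the same comparison. Among markers of other cells, 5 and 6 of 6 erythroid precursor genes fell in immature and mature mice, with sums of 185 to 1351 and 859 to 2172 CPM at 0dpr and of 158 to 343 and 48.5 to 339 CPM at 2dpr. All 12 skeletal muscle genes fell at both ages, from 55414 to 118902 CPM down to 11522 to 17016 CPM in immature mice and from 64587 to 133079 CPM down to 8116 to 17140 CPM in mature mice, and all 6 adipocyte genes fell at both ages. Marrow stroma genes fell in 1 and 3 of 3 cases and granulocyte precursor genes in 0 and 1 of 7, while all 4 macrophage genes and the pan-leukocyte gene Ptprc rose at both ages. With a skeletal muscle score as a covariate, 2 of 9 members (Ebf1 and Ms4a1) were called in immature mice, and Vpreb1, Rag1 and Rag2 were not called in mature mice. The log2 fold changes of the members no longer called were larger in size under the covariate (Igll1 -3.21, Pax5 -4.28, Cd79a -3.41 and Cd79b -2.70 in immature and Vpreb1 -3.77 and Rag2 -5.11 in mature mice), except for mature Rag1 at -3.78. The muscle sums did not overlap between 0dpr and 2dpr at either age. The covariate therefore cannot separate stage from muscle content, and neither the lost calls nor the larger fold changes decide it. The part of these cell types in the fall of the members was not tested.

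Between 2dpr and 5dpr Ebf1 was the only member called by the edgeR test, as the 1 of 9 higher in immature mice (4.37% of all genes) and in mature mice (8.16%). DESeq2 also called Igll1 lower at 5dpr in immature mice (adjusted p = 0.0376). From 5dpr to 14dpr, 4 of 9 members rose in immature mice (Igll1, Cd79a, Cd79b and Ms4a1), where 1.73% of all genes were called higher, and 2 of 9 rose in mature mice (Rag1 and Cd79b), where the share was 1.95%. At an unadjusted p under 0.05, 7 members in immature and 8 in mature mice differed between 14dpr and 5dpr, against 2965 and 3905 of all 21203 genes. The mature count of called members fell to 0 without mature 5dpr replicate 3 or replicate 4. It stood at 1 without 14dpr replicates 2, 3 or 4 or 5dpr replicate 1, each taken alone. The immature count stayed between 3 and 4 over such omissions.

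At 14dpr the mean of every member but Ebf1 was below its baseline mean, and 2 of these differences in immature and 5 in mature mice passed the test. In immature mice Pax5 and Ms4a1 were lower than at baseline (2 of 9 members, against 15.1% of all genes) and Ebf1 was higher (1 of 9, against 16.4%). In mature mice Igll1, Pax5, Cd79a, Cd79b and Ms4a1 were lower (5 of 9, against 16.4%) and Ebf1 was higher (1 of 9, against 17.1%). All 6 erythroid and all 7 granulocyte precursor genes were lower than at baseline at both ages, with granulocyte sums of 2614 to 4031 CPM at baseline and 485 to 1074 CPM at 14dpr in immature mice, and their part in these differences was not tested. The immature count rested on single libraries: it was 0 without 14dpr replicate 1 or replicate 3, 1 without baseline replicate 3, baseline replicate 6 or 14dpr replicate 4, and 5 without 14dpr replicate 2. It was also 0 with the muscle score as a covariate, under which Igll1 and Ebf1 were not called in mature mice. The log2 fold changes of Pax5 (-2.68), Ms4a1 (-2.74) and mature Igll1 (-2.38) were then larger in size, and those of Ebf1 were smaller (0.14 in immature and 0.41 in mature mice). Muscle sums did not overlap between baseline and 14dpr (49202 to 66898 against 10090 to 17071 CPM in immature and 27622 to 58214 against 12069 to 21981 CPM in mature mice). The covariate therefore cannot separate stage from muscle content here either. With the replicate block Pax5 was no longer called in immature mice (log2 fold change -1.48, adjusted p = 0.0891).

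**Figure D1:**
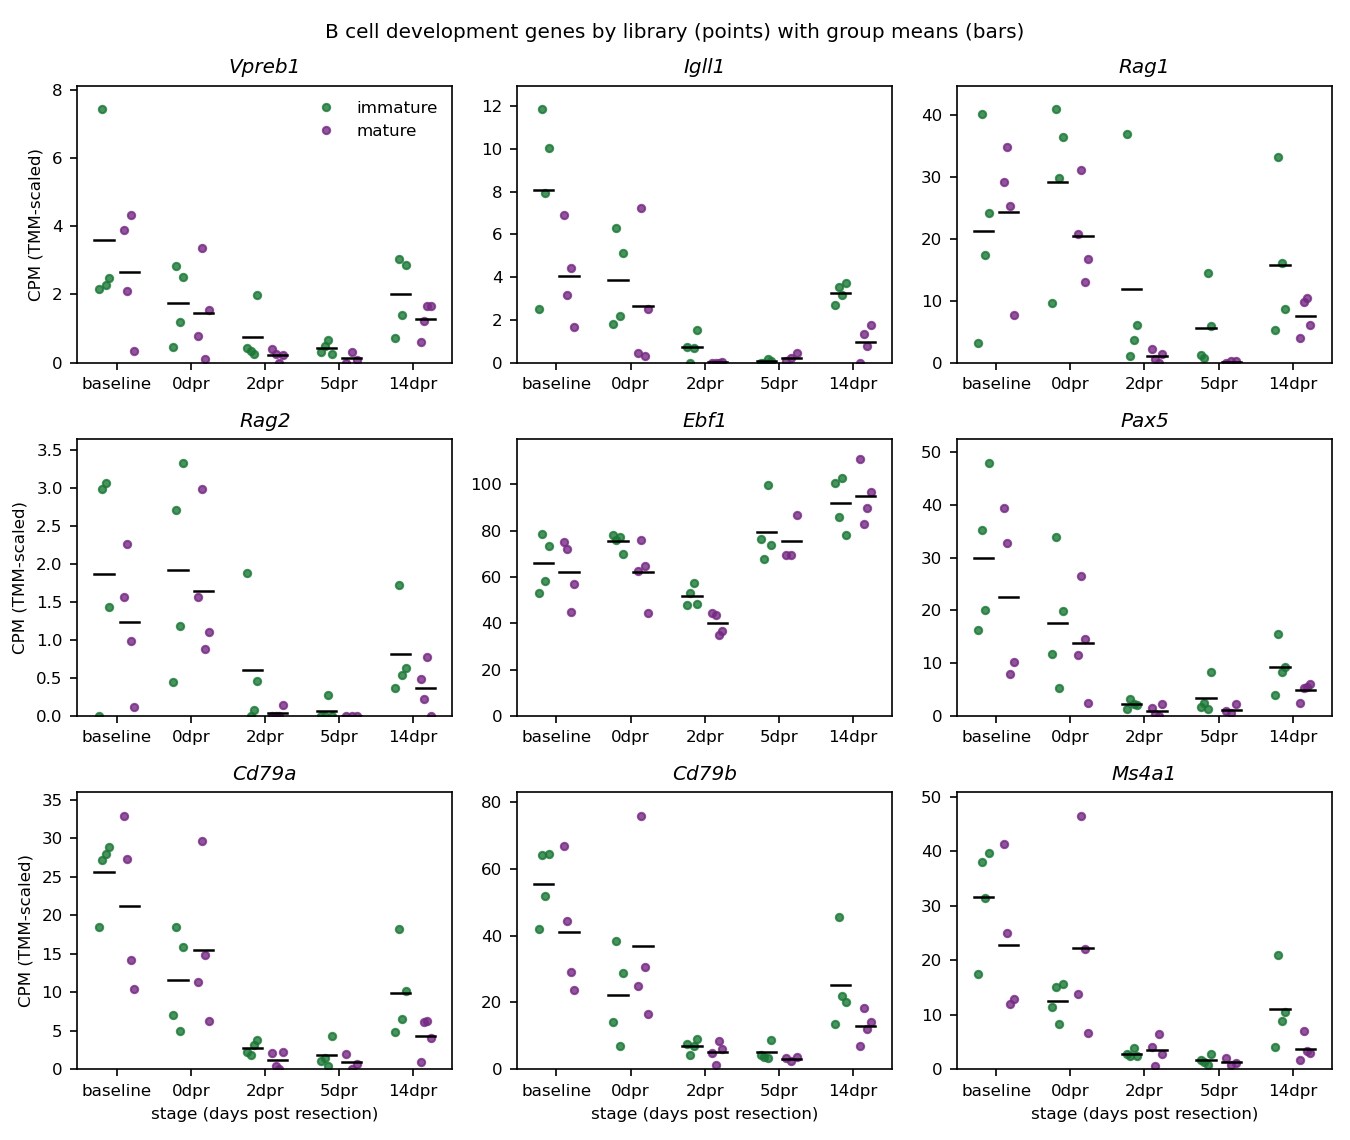
CPM of the 9 members (vertical axis, TMM-scaled, from 0) at baseline and 0, 2, 5 and 14dpr (horizontal axis), with 1 point per library, bars at the group means and colours for immature and mature mice. Ebf1 is the one member whose mean at 14dpr (91.9 CPM in immature and 95.1 CPM in mature mice) lies above its baseline mean.

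Both surrogate light chain genes fell from 0dpr to 2dpr in mature mice, and in immature mice Igll1 fell while Vpreb1 did not pass the test. Vpreb1, the V-like part of the surrogate light chain, stood in immature mice at 0.448, 2.84, 1.18 and 2.5 CPM at 0dpr and at 0.419, 0.338, 0.251 and 1.97 CPM at 2dpr. In mature mice the values were 0.784, 3.37, 0.111 and 1.53 CPM at 0dpr and 0.413, 0.260, 0 and 0.231 CPM at 2dpr. The groups overlapped at both ages, with 57 and 27 reads in immature mice and 44 and 13 reads in mature mice. The log2 fold change was -2.56 (SE 0.85, adjusted p = 0.0128) in mature mice and -1.25 (SE 0.78, adjusted p = 0.196) in immature mice, and the mature call was lost without 0dpr replicate 2 (adjusted p = 0.138). Vpreb1 may share reads with its near copy Vpreb2, since 32.5% of the 50-base words of its transcript also occur in that of Vpreb2. At 14dpr immature mice averaged 2.01 ± 1.12 CPM of Vpreb1 (SD, n = 4) and mature mice 1.29 ± 0.503 CPM, which is 56.1% and 48.5% of baseline.

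Igll1, the lambda-like chain that joins Vpreb1, gave the steepest fall of the 9 genes in mature mice. There it stood at 0.471, 7.24, 0.332 and 2.5 CPM at 0dpr and at 0, 0, 0 and 0.0463 CPM at 2dpr. All mature 0dpr libraries lay above all mature 2dpr libraries, with 82 reads against a single read. The ratio of these reads was 145 (95% interval 25.4 to 5811, counting error only), and the fitted log2 fold change was -6.47 (SE 1.16, adjusted p = 1.77e-05). In immature mice Igll1 stood at 1.79, 6.29, 2.18 and 5.15 CPM at 0dpr and at 0.733, 0, 0.670 and 1.51 CPM at 2dpr. These groups did not overlap either, and the log2 fold change was -2.39 (SE 0.77, adjusted p = 0.0113). It then reached its immature minimum at 5dpr (0, 0, 0.187 and 0.0868 CPM, 5 reads in all) and stood at 2.68, 3.55, 3.15 and 3.72 CPM at 14dpr. The 14dpr libraries all lay above those of 5dpr, with a log2 fold change of 4.91 (SE 0.97, adjusted p = 0.00192). In mature mice the 14dpr values were 0, 1.34, 0.780 and 1.77 CPM. They overlapped those of 5dpr (0.0863, 0.203 and 0.431 CPM), and one mature 14dpr library held no read of Igll1. The mature difference from baseline was -2.03 (log2, SE 0.75, adjusted p = 0.0326), and it was lost without any one of 4 of the 8 libraries compared (baseline replicates 1 and 3, 14dpr replicates 1 and 3).

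The recombinase genes fell at 2dpr in mature mice, while 1 immature library kept them high. Rag1 stood in mature mice at 20.7, 31.1, 13.1 and 16.8 CPM at 0dpr and at 2.15, 0.606, 0 and 1.43 CPM at 2dpr. Every mature 2dpr library lay below every mature 0dpr library, and the log2 fold change was -4.18 (SE 0.91, adjusted p = 0.000263). In immature mice Rag1 stood at 9.71, 40.9, 29.8 and 36.4 CPM at 0dpr and at 37.0, 1.01, 3.60 and 6.16 CPM at 2dpr. Replicate 1 at 2dpr was as high as 0dpr and the other 3 were below all 0dpr libraries. The log2 fold change was -1.29 (SE 0.76, adjusted p = 0.172) with that library and -3.03 (adjusted p = 0.00351) without it.

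Rag2, the partner of Rag1 in the recombinase, followed it at a lower level. In mature mice it stood at 1.57, 2.99, 0.886 and 1.11 CPM at 0dpr and at 0, 0, 0 and 0.139 CPM at 2dpr. The groups did not overlap (50 against 3 reads, ratio 29.5, 95% interval 9.55 to 148, counting error only), and the log2 fold change was -4.73 (SE 1.23, adjusted p = 0.00184). In immature mice Rag2 stood at 0.448, 2.71, 1.18 and 3.34 CPM at 0dpr and at 1.88, 0, 0.0838 and 0.465 CPM at 2dpr. Replicate 1 was again the highest at 2dpr, and the log2 fold change was -1.65 (SE 0.96, adjusted p = 0.168) with it and -3.37 (adjusted p = 0.0206) without it, so that 8 of 9 members were called lower without that library. The same library held 11.2 CPM of Cd8a, 7.75 CPM of Cd8b1, 5.65 CPM of Themis and 13 CPM of Dntt, genes that thymocytes and, for Dntt, pro-B cells also use, against 0.113 to 1.05, 0.251 to 1.51, 0.338 to 0.697 and 1.01 to 3.37 CPM in the other 3. Its Vpreb1 (0.419 CPM) and Igll1 (0.733 CPM) lay within the range of the other 3. Over the whole list, 1 of 8 T cell genes fell from 0dpr to 2dpr in immature mice and 6 of 8 in mature mice. Of all genes, 22.2% and 24.9% were lower there. The T cell sums were 14.2 to 40.4 and 30.1 to 53.9 CPM at 0dpr and 5.40 to 52.3 and 5.63 to 9.75 CPM at 2dpr, with immature 2dpr replicate 1 at 52.3 CPM. Of the 2 genes of the thymocyte list tested (Cd8b1 and Cd1d1), 1 fell in immature and 2 in mature mice, beside the same shares of all genes. Their sum was 13.4 to 19.9 CPM in the immature 2dpr libraries, and outside replicate 1 most of it was Cd1d1. The third of that list, Ptcra, was not among the genes tested. The part of T lineage cells in the Rag values was not tested.

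At 5dpr Rag1 was at 1.27, 0.751, 14.6 and 5.90 CPM in immature mice and at 0, 0.305 and 0.216 CPM in mature mice. The highest immature value was that of replicate 4, which also held 3.87 CPM of Cd8a and 3.64 CPM of Cd8b1. Rag2 was not detected in any mature 5dpr library, which allows a group level of up to 0.0664 CPM (3 reads over the group). By 14dpr Rag1 had risen in mature mice to 3.98, 9.72, 10.5 and 6.02 CPM, all above 5dpr, with a log2 fold change of 5.19 (SE 1.27, adjusted p = 0.0131). This call was lost without any one of the 3 mature 5dpr libraries (adjusted p = 0.0655 to 0.0690). Rag2 at 14dpr had 13 reads in mature mice, at least 5.46-fold higher than 5dpr against a floor of 3 reads over the group, and this was not called (adjusted p = 0.134). Both Rag genes lie inside the span of B230118H07Rik, a gene on the strand of Rag1 and opposite to Rag2, with which they share 80 (Rag1) and 208 (Rag2) exon bases, or 1.21% and 6.07% of their exon length, and the strand setting of the counting is not given in the sources used here.

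**Figure D2:**
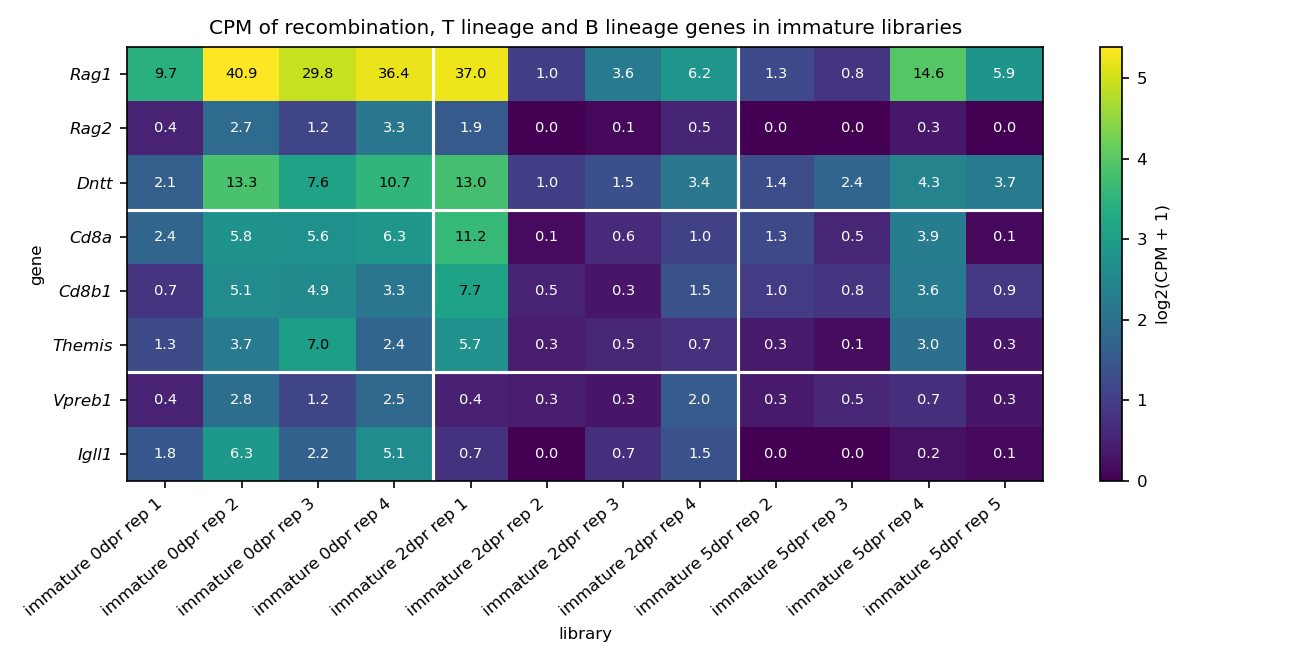
Heat map of log2(CPM + 1) for recombination, T lineage and B lineage genes (rows) in the immature libraries of 0dpr, 2dpr and 5dpr (columns), with the CPM printed in each cell. Immature 2dpr replicate 1 has Rag1 at 37.0 CPM and Cd8a at 11.2 CPM beside Igll1 at 0.733 CPM.

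Ebf1 and Pax5, which act together in B cells, did not move alike. Ebf1 stood in immature mice at 78.3, 75.9, 77.2 and 70.1 CPM at 0dpr, at 47.9, 52.9, 57.5 and 48.2 CPM at 2dpr and at 76.3, 67.6, 99.8 and 74.0 CPM at 5dpr. The 2dpr libraries lay below all those of 0dpr and of 5dpr, with log2 fold changes of -0.55 (SE 0.16, adjusted p = 0.00491) from 0dpr to 2dpr and of 0.62 (SE 0.16, adjusted p = 0.00922) from 2dpr to 5dpr, the second lost without immature 5dpr replicate 4 (adjusted p = 0.0735). In mature mice Ebf1 stood at 62.8, 76.0, 64.8 and 44.5 CPM at 0dpr, at 44.6, 43.6, 35.0 and 36.5 CPM at 2dpr and at 69.6, 69.7 and 86.8 CPM at 5dpr. The lowest 0dpr library lay just below the highest of 2dpr, all 5dpr libraries lay above 2dpr, and both changes were called (log2 -0.64, SE 0.16, adjusted p = 0.00112, and 0.92, SE 0.17, adjusted p = 0.000205). At 14dpr Ebf1 was above baseline by 0.48 on the log2 scale in immature mice (SE 0.16, adjusted p = 0.0172) and by 0.61 in mature mice (SE 0.16, adjusted p = 0.00234). The mature 14dpr libraries (111, 82.7, 89.7 and 96.7 CPM) all lay above the mature baseline (75.0, 72.2, 44.8 and 57.1 CPM), whereas the immature groups overlapped (100.6, 85.8, 102.9 and 78.3 CPM against 53.2, 78.7, 58.2 and 73.3 CPM). The immature call was lost without baseline replicate 2 or 14dpr replicate 1 or 3.

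Pax5 fell far more than Ebf1. In immature mice it stood at 11.7, 33.9, 5.28 and 19.9 CPM at 0dpr and at 1.26, 3.26, 2.26 and 2.09 CPM at 2dpr, and in mature mice at 11.5, 26.6, 14.6 and 2.36 CPM at 0dpr and at 1.40, 0.346, 0 and 2.22 CPM at 2dpr. No 2dpr library reached the lowest 0dpr library of its age. The log2 fold changes were -2.99 (SE 0.71, adjusted p = 0.000807) and -3.62 (SE 0.74, adjusted p = 0.000112), leaving 12.5% and 7.2% of the 0dpr mean against 68.5% and 64.4% for Ebf1. At 14dpr Pax5 was at 4.02, 15.6, 8.24 and 9.24 CPM in immature and at 2.41, 5.36, 5.46 and 6.02 CPM in mature mice. All of these lay below the baseline libraries of the same age (16.2 to 48.0 CPM and 7.89 to 39.4 CPM), with log2 fold changes of -1.68 (SE 0.64, adjusted p = 0.0424) and -2.22 (SE 0.67, adjusted p = 0.00878). The immature call was lost without any one of 5 of the 8 libraries.

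The B cell receptor chains were the most abundant members per length at baseline. At 38.8 ± 7.57 CPM per kb of exon in immature mice (SD, n = 4), Cd79b ranked first of the 9, ahead of Cd79a at 17.6 and Ebf1 at 6.75 CPM per kb, while Rag2 was last at 0.547 CPM per kb. At 2dpr Ebf1 ranked first at both ages on this per-length scale (5.29 CPM per kb in immature and 4.09 in mature mice). Cd79a stood in immature mice at 7.02, 18.5, 5.01 and 15.9 CPM at 0dpr and at 2.2, 1.80, 3.10 and 3.72 CPM at 2dpr, and in mature mice at 11.3, 29.7, 14.8 and 6.25 CPM and at 2.15, 0.433, 0 and 2.17 CPM. No library overlapped between the stages, and the log2 fold changes were -2.09 (SE 0.67, adjusted p = 0.0112) and -3.59 (SE 0.71, adjusted p = 7.17e-05).

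Cd79b, the second chain of the pair, stood in immature mice at 14.2, 38.3, 7.01 and 28.7 CPM at 0dpr and at 7.54, 4.28, 6.87 and 8.94 CPM at 2dpr. Here the lowest 0dpr library fell among those of 2dpr, and the log2 fold change was -1.67 (SE 0.49, adjusted p = 0.00567), lost by a small margin without 0dpr replicate 2 (adjusted p = 0.0502). In mature mice Cd79b stood at 24.8, 76.0, 30.7 and 16.4 CPM at 0dpr and at 4.79, 1.3, 8.55 and 5.92 CPM at 2dpr, without overlap, with a log2 fold change of -2.85 (SE 0.50, adjusted p = 1.28e-05). From 5dpr to 14dpr Cd79b rose at both ages. It went from 4.12, 3.63, 3.40 and 8.77 CPM to 13.4, 45.6, 22.0 and 20.1 CPM in immature mice (log2 2.34, SE 0.50, adjusted p = 0.00452) and from 3.45, 2.44 and 3.52 CPM to 6.87, 18.3, 11.9 and 14.0 CPM in mature mice (log2 2.04, SE 0.56, adjusted p = 0.0317). The groups did not overlap at either age, and the mature call was lost with the replicate block (log2 1.88, adjusted p = 0.0523) and without any one of 6 of the 7 libraries. Cd79a rose in immature mice (log2 2.44, SE 0.70, adjusted p = 0.0435), a call lost without any one of 6 of the 8 libraries, and gave 2.40 (SE 0.83, adjusted p = 0.0948) in mature mice.

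Ms4a1, the gene of mature B cells, fell at 2dpr at both ages, and at 14dpr in mature mice it stood at a lower share of its baseline mean than any other member. It stood in immature mice at 11.4, 15, 8.28 and 15.6 CPM at 0dpr and at 2.72, 2.36, 3.85 and 2.32 CPM at 2dpr, and in mature mice at 13.8, 46.5, 22.0 and 6.67 CPM and at 3.97, 0.606, 6.44 and 2.78 CPM. The stages did not overlap at either age, and the log2 fold changes were -2.14 (SE 0.57, adjusted p = 0.00225) and -2.72 (SE 0.56, adjusted p = 0.000112). The minimum came at 5dpr, with 1.62 ± 0.849 CPM (SD, n = 4) in immature and 1.24 ± 0.677 CPM (n = 3) in mature mice. At 14dpr Ms4a1 was at 4.14, 21.0, 8.90 and 10.4 CPM in immature mice, above all 5dpr libraries (log2 2.81, SE 0.60, adjusted p = 0.00422). In mature mice it was at 1.69, 7.04, 3.34 and 3.01 CPM, which overlapped 5dpr (1.98, 0.660 and 1.08 CPM, adjusted p = 0.168). Relative to baseline the 14dpr mean was 35.1% in immature mice (log2 -1.51, SE 0.52, adjusted p = 0.0240) and 16.5% in mature mice (log2 -2.59, SE 0.56, adjusted p = 0.000347). The immature 14dpr libraries overlapped those of baseline (17.5 to 39.7 CPM), and the immature call was lost without any one of 5 of the 8 libraries.

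**Figure D3:**
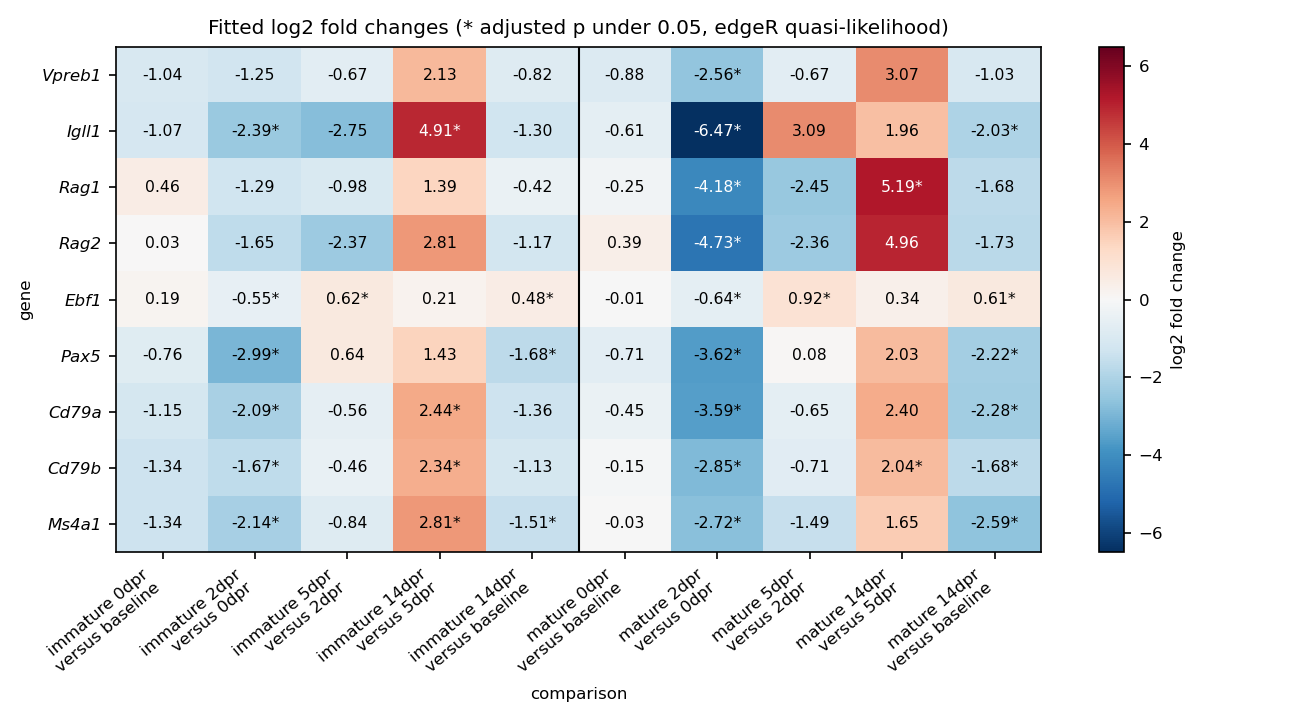
Heat map of fitted log2 fold changes of the 9 members (rows) in the 5 stage comparisons of each age (columns), with asterisks at adjusted p under 0.05 by the edgeR quasi-likelihood test. The mature 2dpr against 0dpr column has asterisks for all 9 members, and the Rag2 value for mature 14dpr against 5dpr rests on a 5dpr group without a read.

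At 0dpr, the day of resection, the edgeR test called no member against baseline at either age, where 10.6% of all genes in immature and 22.5% in mature mice were called in either direction. At an unadjusted p under 0.05 the edgeR test gave 2 members in immature and 0 in mature mice, against 5490 and 7320 of all 21203 genes. Those 2 members were Cd79b (log2 -1.34, adjusted p = 0.0574) and Ms4a1 (log2 -1.34, adjusted p = 0.0892). Both had all immature 0dpr libraries below all baseline libraries, where 13.2% of all genes did not overlap. DESeq2 called 1 member, Cd79b, in immature mice (adjusted p = 0.0365), as did edgeR without a filter on low counts (adjusted p = 0.0491). Ms4a1 was at 17.5, 38.0, 31.4 and 39.7 CPM at the immature baseline, and in mature mice it was at 41.4, 25.1, 11.9 and 12.9 CPM at baseline. The mature baseline and 0dpr libraries overlapped for all 9 members, where 24.1% of all genes did not overlap.

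Precursor genes and the mature gene were then set against each other within each library. The mean log2 CPM of Vpreb1, Igll1, Rag1 and Rag2 minus that of Ms4a1 was -2.68 ± 0.73 (SD, n = 4) at the immature baseline and -2.43 ± 0.89 at the mature baseline, and the mean of the 4 genes was below Ms4a1 in every baseline library. Rag1 alone was above Ms4a1 in 3 of them, by 0.08 in immature replicate 3 and by 0.47 and 1.07 in mature replicates 2 and 3 on the log2 scale. Exon lengths were 1.199 kb for Vpreb1, 2.164 kb for Igll1, 6.608 kb for Rag1, 3.424 kb for Rag2 and 6.187 kb for Ms4a1. CPM was not scaled by these lengths, so the level and sign of the precursor minus Ms4a1 difference also depend on them. In immature mice this difference was -1.62 ± 0.77 at 0dpr, -1.39 ± 1.31 at 2dpr, -1.49 ± 1.25 at 5dpr and -1.71 ± 0.27 at 14dpr. Without immature 2dpr replicate 1, high in T lineage transcripts, the immature 2dpr mean was -1.79. In mature mice the difference was -2.66 ± 1.25 at 0dpr, -3.01 ± 1.60 at 2dpr, -2.15 ± 1.10 at 5dpr (n = 3) and -1.29 ± 0.55 at 14dpr. The mature precursor means at 2dpr and 5dpr lay at -2.36 to -1.04 log2 CPM, near the floor of -2.36 that no read gives. Mature 2dpr replicate 3 was at that floor, so its difference of -5.09 reflects Ms4a1 only. The means at 14dpr were less negative than at baseline at both ages, but the libraries overlapped, with -2.00 to -1.36 against -3.62 to -1.88 in immature mice and -2.06 to -0.76 against -3.39 to -1.27 in mature mice. With the mean of Ms4a1, Cd79a and Cd79b in place of Ms4a1 the 14dpr differences were -2.09 in immature and -1.92 in mature mice. The single positive value on this scale without length correction, 0.38, belonged to immature 5dpr replicate 4, in which Rag1 was at 14.6 CPM and Igll1 at 0.187 CPM.

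**Figure D4:**
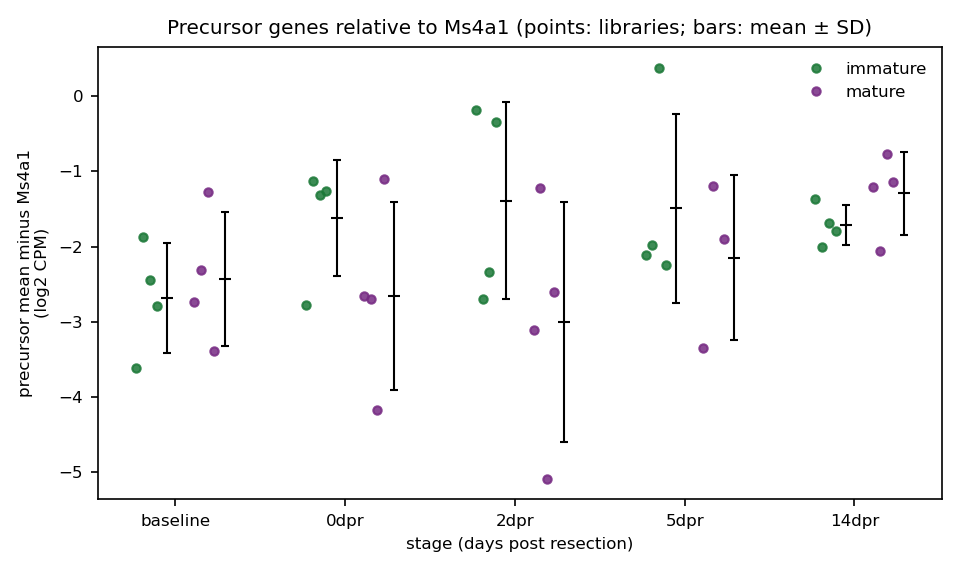
Mean log2 CPM of Vpreb1, Igll1, Rag1 and Rag2 minus log2 CPM of Ms4a1 (vertical axis) by stage (horizontal axis), with 1 point per library and bars at mean ± SD. CPM is not scaled by exon length. At 14dpr the means are -1.71 in immature and -1.29 in mature mice, within ranges that overlap those of baseline.

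As a share of the baseline mean, the members at 14dpr ranged from 31.0% (Pax5) to 74.5% (Rag1) in immature mice and from 16.5% (Ms4a1) to 48.5% (Vpreb1) in mature mice, Ebf1 apart at 139.6% and 152.6%. The 4 precursor genes stood at 40.5% to 74.5% in immature and 24.0% to 48.5% in mature mice. Pax5, Cd79a, Cd79b and Ms4a1 stood at 31.0% to 45.5% in immature and 16.5% to 31.2% in mature mice. The ranges of both kinds of gene overlapped at both ages, and the difference between them was not tested.

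**Figure D5:**
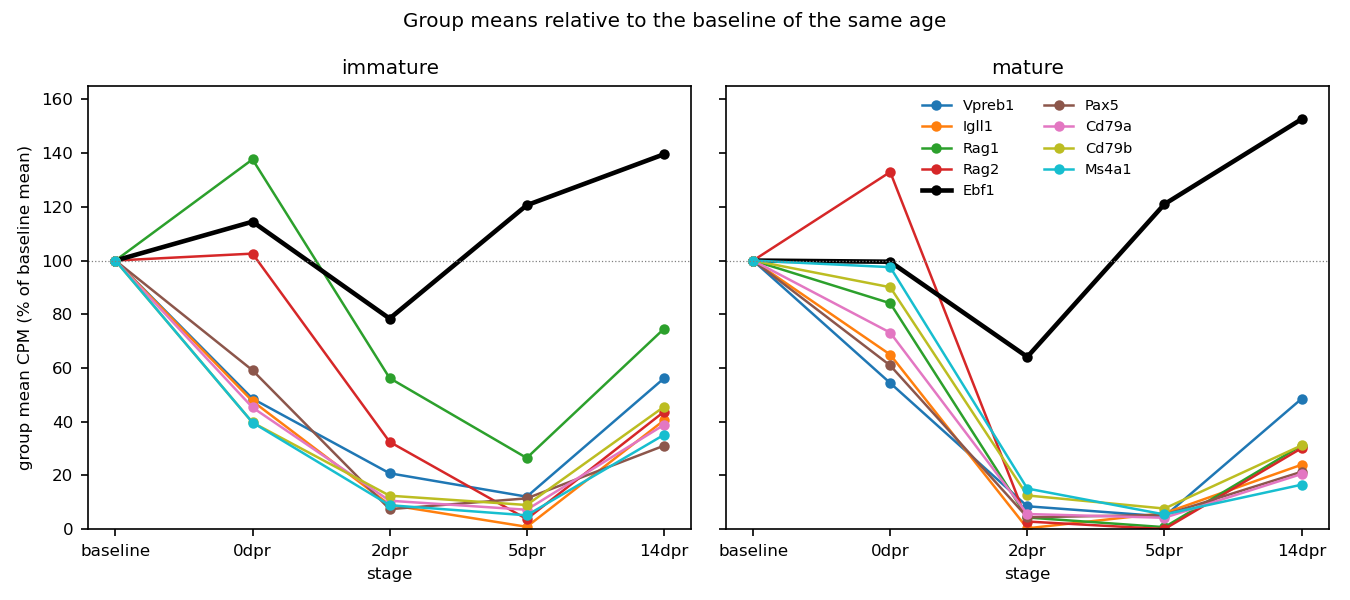
Group mean CPM of each member as a percent of the baseline mean of the same age (vertical axis) at the 5 stages (horizontal axis), with immature and mature mice in separate panels and a dotted line at 100%. At 14dpr Ebf1 stands at 139.6% and 152.6%, and every other member is below 100% at both ages.

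By the edgeR test, age made no called difference in any member at any stage. Against mature mice, immature mice gave 0 of 9 members called at baseline (0.585% of all genes called in either direction), 0dpr (0.726%), 2dpr (0.627%), 5dpr (0%) and 14dpr (0.00943%). At an unadjusted p under 0.05 the edgeR test gave 0, 0, 4, 1 and 3 members at these stages. The matching counts over all 21203 genes were 2482, 2278, 2812, 1081 and 968. DESeq2 called Igll1 and Rag1 at 2dpr (adjusted p = 0.0112 for each) and Rag1 at 5dpr (adjusted p = 0.00448), all higher in immature mice. By the edgeR test Rag1 at 2dpr gave a log2 difference of 3.40 (SE 0.90, adjusted p = 0.0624), which was 1.67 and not called without immature 2dpr replicate 1, and Igll1 gave one of 4.62 (SE 1.27, adjusted p = 0.0760), the latter with 28 reads in immature and 1 in mature mice (ratio 39.0, 95% interval 6.44 to 1594, counting error only). Both ages overlapped for these genes at 2dpr. Without immature 2dpr replicate 2 both were called, and without a filter on low counts Rag1 was called (adjusted p = 0.0362). At 5dpr the immature Rag1 libraries all lay above the mature ones, with a log2 difference of 4.87 and an adjusted p of 0.308. At 14dpr Ms4a1 was higher in immature mice by 1.56 on the log2 scale with an adjusted p of 0.885. The age by stage interaction called 0 members from 0dpr to 2dpr (0.0613% of all genes) and 0 from baseline to 14dpr (0.0472%). At an unadjusted p under 0.05 the interaction gave 2 and 0 members, against 2382 and 1694 of all 21203 genes. The larger fitted fall of Igll1 (log2 difference of the falls 4.08, adjusted p = 0.303) and Rag1 (2.88, adjusted p = 0.338) in mature mice was not called by this test of the difference, and the Rag1 value was 1.15 without immature 2dpr replicate 1.

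Other genes of the pathway moved in both directions from 0dpr to 2dpr, where 21.8% (immature) and 22.7% (mature) of all genes were called higher, beside the 22.2% and 24.9% called lower. Of 8 other B lineage genes, 5 fell and 3 rose at both ages. Pou2af1, a B cell coactivator, had log2 fold changes of -2.92 in immature and -3.76 in mature mice, and Blk, a kinase of the B cell receptor pathway, of -2.62 and -3.29. Cd72, Blnk and Btk rose (log2 1.85, 1.13 and 1.46 in immature and 1.68, 1.07 and 1.27 in mature mice). Of 9 other precursor genes, 2 fell and 3 rose in immature mice and 5 fell and 2 rose in mature mice. Vpreb3 fell (log2 -2.06 and -2.90), as did Myb, a progenitor transcription factor (log2 -1.88 and -2.98), while Il7r, the receptor chain for interleukin-7, rose (log2 2.55 and 2.89), as did Cd93 (log2 1.93 and 2.49). Of 9 other mature B cell genes, 3 fell and 1 rose in immature mice and 7 fell in mature mice, among them Ighd, the heavy chain of IgD (log2 -2.59 and -2.40), and Cr2, the complement receptor (log2 -1.73 and -3.06). Of 8 other lymphoid transcription factors, 4 fell and 2 rose in immature mice and 5 fell and 2 rose in mature mice, with Irf4 at -1.49 and -1.69 and Spi1, a myeloid and B cell factor, at 2.44 and 2.12. Macrophage genes rose in the same comparison, with sums of 317 to 445 CPM at 0dpr and 1774 to 2446 CPM at 2dpr in immature mice and of 313 to 403 and 2269 to 2402 CPM in mature mice, and their part in the genes that rose was not tested.

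At 14dpr most of the other mature B cell genes were below baseline. Of the 9 other mature B cell genes, 6 were lower than at baseline in immature and 7 in mature mice, with Cr2 at -2.77 and -3.48, Ighd at -2.58 and -3.14 and Fcer2a, the low-affinity IgE receptor, at -2.85 and -3.17 on the log2 scale. Of the 9 other precursor genes, 2 were lower in immature mice (Lef1 and Myb) and 3 in mature mice (Dntt, Lef1 and Myb), and Cd93 was higher at both ages (log2 1.58 and 1.57). At this comparison 15.1% and 16.4% of all genes were lower, and the difference in counts between the lists was not tested.

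Across the 39 libraries, log2 CPM of the members other than Ebf1 moved together. Pearson's r was 0.95 for Cd79b with Ms4a1, 0.94 for Pax5 with Cd79a, 0.86 for Rag1 with Rag2 and 0.84 for Vpreb1 with Igll1. It was 0.04 to 0.36 for Ebf1 with the other 8 members. These are descriptions over libraries that share the stage changes and the scaling. Among 16138 other genes with a mean of at least 1 CPM, those most like the mean of Vpreb1, Igll1, Rag1 and Rag2 included Fam129c (r = 0.88), Slain1, Ptprcap and Vpreb3 (0.86). Those most like Ms4a1 were Ighd (0.93), Ly6d, Bank1, Irf4 and Ikzf3 (0.91). Those most like Ebf1 were Islr (0.86), which encodes the mesenchymal surface protein Meflin, and Dnm1, Zfp521, Dkk3 and Ick (0.83), none of which is a B cell marker on the lists used here.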

How the data were processed

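Total RNA from snap-frozen, ground rib tissue was made into Illumina TruSeq stranded libraries and sequenced as 150 bp read pairs on a NovaSeq, and per the labels STAR 2.5.2a and GRCm38 were used. The authors deposited whole-number counts per gene (48709 genes after 24 rows of spike-ins and transgenes, at most 0.00227% of counts, were left out) and a filtered table of 21204 rows, of which 1 named no gene. The deposited signal is the authors' TMM-scaled CPM, which edgeR gave again from the counts within a relative difference of 0.000283. Replicates were not pooled, and 39 of 40 labelled samples were analysed. No library pair agreed within counting noise.

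Counts of the 21203 filtered genes were tested with edgeR 4.0.16 (R 4.3.3, glmQLFit and glmQLFTest, TMM, 1 coefficient per group, all 39 libraries) with Benjamini-Hochberg adjustment at 0.05, where the study used DESeq2. In simulated data for immature 2dpr against 0dpr, 200 of the 21203 genes were changed, all with a mean of at least 1 CPM. There 58% of 2-fold and 76% of 4-fold changes were called, with 9 unchanged genes among 143 calls. The real comparison called 9321 genes, and these rates need not hold for it or for members with few reads. DESeq2 1.42.0 and other filters, scalings and designs were alternatives. Log2 CPM used a prior count of 2. Members, gene lists and tests were chosen with earlier results of these data known. The text names all 9 members, 2 to 4 called genes per pathway list and the 5 genes most like each of 3 patterns, except that 1 gene of the lists is not reported here. At an unadjusted p of 0.05 or more, fold changes of members are given only for 2dpr against 0dpr, and p-values were adjusted within each of 17 comparisons.

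Replicate numbers were not taken as pairs: same-numbered libraries had a mean correlation of deviations of 0.0125 over 154 pairs. Only between the ages at 0dpr was every pair over 0.1 (4 pairs, mean 0.224), and the block changed no call there. Intervals and floors cover counting error only. Coordinates and exon lengths are from the GENCODE annotation of GRCm38.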

Additional observations from a re-analysis of the deposited data

Results flagged for a closer look

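Of 90 groups of values examined, 8 held a library far from the others of its group. For normally spread values chance alone gives about 1 in 20, a rate that does not hold for groups with mostly no reads. Vpreb1 was at 7.42 CPM in immature baseline replicate 3, against 2.17 to 2.49 CPM in the other 3 libraries. Cd79a was at 18.4 CPM in immature baseline replicate 2, against 27.2 to 28.9 CPM, and Pax5 was at 2.41 CPM in mature 14dpr replicate 1, against 5.36 to 6.02 CPM. In 3 groups one library held a few reads and the others none, which the rule always flags: Igll1 was at 0.0463 CPM in mature 2dpr replicate 4 (1 read), Rag2 at 0.139 CPM in the same library (3 reads) and Rag2 at 0.280 CPM in immature 5dpr replicate 4 (6 reads). The precursor genes relative to Ms4a1 stood at -2.77 in immature 0dpr replicate 1, against -1.31 to -1.13, and at 0.38 in immature 5dpr replicate 4, against -2.25 to -1.98. What sets these libraries apart was not tested.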

How the results depend on the processing

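The 32 called member results kept their direction under 7 alternatives (224 values) and with each library left out (253 values). Of these values 16 and 35 lost the call, the 16 being 13 with the skeletal muscle score as a covariate, 2 with the replicate block and 1 with only the libraries compared. No call was lost with RLE size factors, DESeq2, filterByExpr (18333 genes) or no filter (35470 genes). Replicate numbers do not pair the libraries in the labels. The block moved the mature 14dpr against 5dpr count from 2 to 1 and changed no other count by more than 1.5 times.

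DESeq2 called 1 member for immature 0dpr against baseline (0 by edgeR), 2 for immature 5dpr against 2dpr (1), 4 for mature 14dpr against 5dpr (2), 2 for age at 2dpr (0) and 1 for age at 5dpr (0). Without a filter 1 was called for immature 0dpr against baseline and 1 for age at 2dpr. The muscle covariate gave 2 for immature 2dpr against 0dpr (6) and 0 for immature 14dpr against baseline (3), with log2 fold changes of Pax5 of -4.28 and -2.68. Muscle sums did not overlap between the stages of either comparison, so this setting cannot separate stage from muscle content. With only the libraries compared, immature 14dpr against baseline gave 6 and mature 14dpr against 5dpr gave 4. With Cd79a and Cd79b averaged with Ms4a1, the 14dpr difference from the precursor genes was -2.09 in immature and -1.92 in mature mice. The cause was not tested.

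Leaving out single libraries gave 0 to 1 for immature 0dpr against baseline (1 without 0dpr replicate 2), 5 to 8 for immature 2dpr against 0dpr, 8 to 9 for mature, 0 to 1 for immature 5dpr against 2dpr (0 without 5dpr replicate 4), 3 to 4 for immature 14dpr against 5dpr, 0 to 2 for mature, 0 to 5 for immature 14dpr against baseline, 5 to 6 for mature and 0 to 2 for age at 2dpr (2 without immature 2dpr replicate 2). Members outside the called and near-called results changed sign in 12 of 636 values under alternatives and in 50 of 841 with a library left out. Low reads limit Rag2, Igll1 and Vpreb1 at 2dpr and 5dpr.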

Other observations

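Genes of plasma cells, the antibody-secreting end of the B lineage, divided into those that followed the B cell genes and those that did not. Jchain, which joins antibody units, fell from 0dpr to 2dpr by 2.98 on the log2 scale in immature mice (edgeR, adjusted p = 0.000964) and by 3.42 in mature mice (adjusted p = 3.68e-05), and Mzb1, a chaperone of antibody secretion, fell by 2.71 (adjusted p = 0.00155) and 3.00 (adjusted p = 0.000227). Sdc1, which encodes CD138 and is also made by epithelial and stromal cells, rose by 1.32 and 1.42, and Xbp1, a factor of the unfolded protein response in many cells, by 0.28 and 0.53. Of the 7 genes, 2 were higher and 2 lower at 2dpr in immature mice, against 2 higher and 3 lower in mature mice, where 21.8% and 22.7% of all genes were higher and 22.2% and 24.9% lower, so the share of 2 in 7 is not far from the background. At 14dpr against baseline Sdc1, Xbp1 and Prdm1 were higher at both ages, and Jchain, Mzb1 and Derl3 were lower in mature mice (log2 -3.17, -2.37 and -2.68). There 16.4% of all genes in immature and 17.1% in mature mice were higher, and 16.4% in mature mice were lower.

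Among 6 genes listed as signals to cells of the B lineage, early or late, Tnfsf13, Cxcl12 and Il7 are described here. Tnfsf13, which encodes APRIL, rose from 0dpr to 2dpr (log2 1.84 in immature and 1.44 in mature mice). In that comparison 21.8% and 22.7% of all genes were called higher. Cxcl12, the chemokine that holds precursors in the marrow, fell in mature mice (log2 -0.95, adjusted p = 0.000272), where 24.9% of all genes were lower. It gave -0.47 in immature mice (adjusted p = 0.0676). Il7, the growth factor of mouse B cell precursors, gave -1.24 and -1.12 (adjusted p = 0.0559 and 0.0738). From 5dpr to 14dpr Cxcl12 rose in immature mice (log2 0.80, adjusted p = 0.0245), where 1.73% of all genes were called higher.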
